A study of Mus musculus with 12 samples.

Results

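The genes described here encode 9 coregulators of the progesterone receptor, chosen by symbol as its coactivators, corepressors and partners. They are Ncoa1, Ncoa2, Ncoa3, Ncoa6, Ncor1, Nrip1, Nono, Sfpq and Ddx5. All 9 were found among the 24964 genes of the count table, and all 9 passed the filter on low counts, which left 15561 genes tested. RNA came from uterine tissue of pregnant mice at 13.5 days post coitum, in 12 libraries. All 12 carried the Myh11Cre driver, in which the smooth muscle myosin gene Myh11 directs Cre recombinase. The 4 control libraries carried Myh11Cre alone, the 4 PGR-A OE libraries carried Myh11Cre with LSLPGRA/+ and overexpress receptor isoform A in the myometrium, and the 4 PGR-B OE libraries carried Myh11Cre with LSLPGRB/+ and overexpress isoform B there. The labels give neither the age of the mice nor whether replicates are separate animals, so p-values measure only how far these libraries spread, which may be technical.

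The progesterone receptor is a transcription factor that binds DNA once it holds hormone, and it acts on chromatin through proteins that it recruits. Coactivators of the steroid receptor coactivator family (Ncoa1, Ncoa2 and Ncoa3) bind the receptor through leucine-rich motifs and bring in histone acetyltransferases, while the corepressors Ncor1 and Nrip1 bring in histone deacetylases. In the myometrium, the balance of receptor isoforms and of coregulators is held to bear on how the receptor keeps the pregnant uterus quiescent, and the RNA-binding proteins Nono and Sfpq have been described there as partners of the receptor. The question put to the counts was whether transcripts of these coregulators differ when the myometrium carries more of isoform A or of isoform B.

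Pgr, the receptor gene itself, was checked first. It stood at 106 to 142 CPM (counts relative to library size, after TMM scaling) in the 4 controls, at 166 to 255 CPM in PGR-A OE and at 188 to 248 CPM in PGR-B OE, so that neither overexpression group overlapped the controls. Total counts lay between 31872534 and 33078483 per library. PGR-A OE replicate 4 stood apart on the first principal component, at 62.4 against -30.97 (control replicate 4) to 7.58 in the other 11 libraries. All 8 smooth muscle markers listed, among them Myh11 and Acta2, were detected in each library.

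Because the receptor acts at DNA, the 250 bases before annotated starts were taken from the RefSeq promoter table (build GRCm38.p6), which held 11 starts for 7 of the 9 members. Progesterone receptor binds a hormone response element made of half-sites with the letters TGTTCT, or AGAACA on the other strand. Such a half-site was present in 2 of the 11 windows, an alternative start of Ncor1 and a start of Ddx5, compared with 16.1% of the 32817 windows of all genes. The full palindrome, AGNACA and TGTNCT around any 3 bases (N is any base), was in 0 of the 11 windows and in 0.0609% of all windows. Shown 5′ to 3′ on the strand of the gene, with half-sites in capitals, are both windows that held one and the first start of Nrip1, the member that varied most between libraries and whose window held none. The windows lie on the minus strand at chr11:62438516-62438765 (Ncor1), chr11:106788495-106788744 (Ddx5) and chr16:76373828-76374077 (Nrip1).
Ncor1: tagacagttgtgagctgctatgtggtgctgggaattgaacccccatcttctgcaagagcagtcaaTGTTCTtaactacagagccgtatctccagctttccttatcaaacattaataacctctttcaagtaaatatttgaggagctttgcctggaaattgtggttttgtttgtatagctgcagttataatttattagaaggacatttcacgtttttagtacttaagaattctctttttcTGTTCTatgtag
Ddx5: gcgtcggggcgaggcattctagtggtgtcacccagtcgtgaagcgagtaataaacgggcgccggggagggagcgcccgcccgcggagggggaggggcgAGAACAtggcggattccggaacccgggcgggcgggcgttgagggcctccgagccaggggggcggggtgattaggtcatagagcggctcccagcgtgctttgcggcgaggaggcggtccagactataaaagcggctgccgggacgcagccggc
Nrip1: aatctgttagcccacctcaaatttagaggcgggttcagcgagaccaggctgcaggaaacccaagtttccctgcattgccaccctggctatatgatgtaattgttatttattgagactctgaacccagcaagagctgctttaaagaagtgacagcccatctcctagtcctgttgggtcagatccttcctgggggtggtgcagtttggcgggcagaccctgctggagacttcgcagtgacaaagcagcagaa

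In the Ncor1 window the half-sites begin at positions -185 and -12 relative to the transcript start, both as TGTTCT. In the Ddx5 window the half-site begins at position -152, as AGAACA. These matches describe letters only, and no binding was measured.

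The coregulators differed widely in abundance, and their order was nearly the same in all groups. Levels between genes are compared as CPM per kb of the deposited gene length. The RNA helicase gene Ddx5 was the most abundant in control, at 247 ± 20.3 CPM per kb (SD, n = 4). Nono followed at 93.0 ± 3.80 and Sfpq at 55.5 ± 7.67 CPM per kb. These 3 genes of RNA-binding partners lay above Pgr, at 17.6 ± 2.39 CPM per kb, and the 6 genes of chromatin coregulators lay below it. Among those, the corepressor Ncor1 was highest at 11.4 ± 0.758 CPM per kb. Ncoa3 and Ncoa6 stood at 8.21 ± 0.182 and 8.09 ± 0.843 CPM per kb, and their libraries overlapped. Nrip1, Ncoa2 and Ncoa1 shared the lowest place at 4.04 ± 0.557, 4.03 ± 0.230 and 3.92 ± 0.367 CPM per kb, with overlapping libraries. In control, each of the other neighbours in this order was separated without overlap, and Ncor1 lay 1.39-fold above Ncoa3. The order of the first 6 members was the same in PGR-A OE and PGR-B OE, and only the 3 lowest genes changed places, within their overlap.

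**Figure D1:**
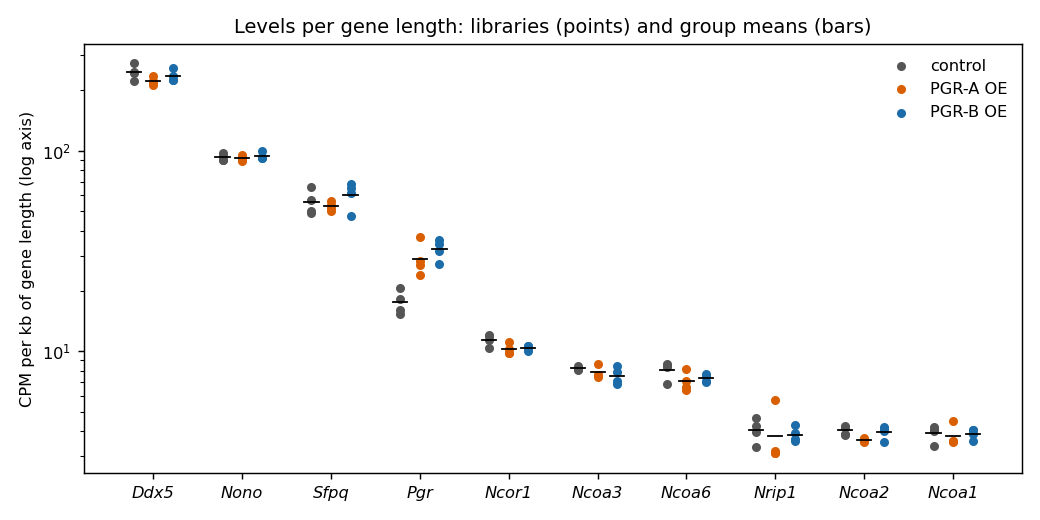
Levels of Pgr and the 9 coregulator genes in CPM per kb of deposited gene length (log axis), with 1 point per library and a bar at each group mean of 4 libraries. Ddx5, Nono and Sfpq lie above Pgr, and Ncor1, Ncoa3, Ncoa6, Nrip1, Ncoa2 and Ncoa1 lie below it in each group.

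In PGR-A OE against control, 0 of the 9 coregulators passed the test, while all 9 had a lower mean estimate. The test was edgeR's quasi-likelihood fit across all genes, with Benjamini-Hochberg adjustment and a threshold of 0.05, by which 0.655% of all genes were called. The log2 differences of the 9 genes ran from -0.19 for Ncoa6 to -0.02 for Nono, with a median of -0.10, whereas 50.1% of all genes tested had a difference above 0 and their median was 0.00051. Many members varied together, as given below, so their signs are not separate observations. With upper-quartile scaling, without control replicate 2, or without control replicate 4 (alone or with PGR-A OE replicate 4), 8 of 9 were lower. At an unadjusted p under 0.05, 2 of 9 members (Ncoa2 and Ncor1) were lower, beside 7.87% of all genes that were lower at that p. That count was 0 of 9 with upper-quartile scaling, and 0 of 9 in 5 of the 8 fits that left out 1 library of these groups, namely control replicate 1 or 2 or PGR-A OE replicate 1, 2 or 3. DESeq2 and limma voom called 0 members over all genes. In bulk tissue, fewer cells of a type and less RNA per cell cannot be told apart.

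Ncoa2, a coactivator that binds the hormone-bound receptor directly, was the 1 member whose groups did not overlap, beside 10.6% of all genes tested. Control libraries held 35.9, 36.2, 32.4 and 33.0 CPM, and PGR-A OE libraries held 30.4, 30.8, 29.9 and 31.6 CPM. Each PGR-A OE library thus lay below each control, with the nearest libraries of the groups at 32.4 and 31.6 CPM. The log2 difference was -0.16 (SE 0.07, 95% interval -0.31 to -0.01), with an adjusted p of 0.291 by edgeR, so the change did not pass.

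Ncor1, the scaffold of the complex that carries the deacetylase Hdac3, held 126, 134, 132 and 115 CPM in the controls and 109, 109, 114 and 124 CPM in PGR-A OE. Control replicate 4 and PGR-A OE replicate 4 made the groups overlap. Its log2 difference was -0.16 (SE 0.07, interval -0.30 to -0.01, adjusted p = 0.295 by edgeR). Ncoa6, a coactivator subunit of a histone methyltransferase complex, held 57.2, 59.4, 58.8 and 47.05 CPM in the controls and 44.3, 49.1, 45.5 and 56.2 CPM in PGR-A OE. Here too replicate 4 of either group lay on the side of the other group. The difference was -0.19 (SE 0.09, interval -0.39 to 0.01, adjusted p = 0.350 by edgeR).

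Nrip1, a corepressor recruited by hormone-bound receptors, showed the widest spread between libraries of the 9. Control libraries held 34.1, 37.5, 31.7 and 26.8 CPM, and PGR-A OE libraries held 25.5, 24.9, 25.05 and 45.9 CPM. Of the PGR-A OE libraries, 3 lay below each control and replicate 4 lay above all 11 others. The difference was -0.10 (SE 0.18, interval -0.50 to 0.30) with all libraries, and -0.37 without PGR-A OE replicate 4 (adjusted p = 0.171 by edgeR). Ncoa1, a coactivator of the same family as Ncoa2, showed a smaller form of this pattern, with 30.6, 29.5, 30.05 and 24.7 CPM in the controls and 25.8, 26.2, 26.1 and 32.8 CPM in PGR-A OE. Of its PGR-A OE libraries, 3 lay below the 3 highest controls and replicate 4 lay above all controls. Its difference was -0.05 (SE 0.10), and -0.14 without PGR-A OE replicate 4.

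Of the remaining members, Ncoa3, the third coactivator of the family, held 60.5, 63.8, 61.6 and 61.5 CPM in the controls and 57.4, 56.3, 57.6 and 65.2 CPM in PGR-A OE. Its PGR-A OE replicate 4 was above each control, and the other 3 libraries were below each. Ddx5 ran from 871 to 1064 CPM in the controls and from 830 to 920.2 CPM in PGR-A OE (-0.15, SE 0.08). Sfpq ran from 182 to 244 CPM in the controls and from 185 to 209 CPM in PGR-A OE (-0.07, SE 0.12). Nono, which pairs with Sfpq in a nuclear complex, was the steadiest, at 221 to 241 CPM in the controls and 219 to 235 CPM in PGR-A OE. Its 95% interval, from -0.15 to 0.11, spans 0.900-fold to 1.08-fold.

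**Figure D2:**
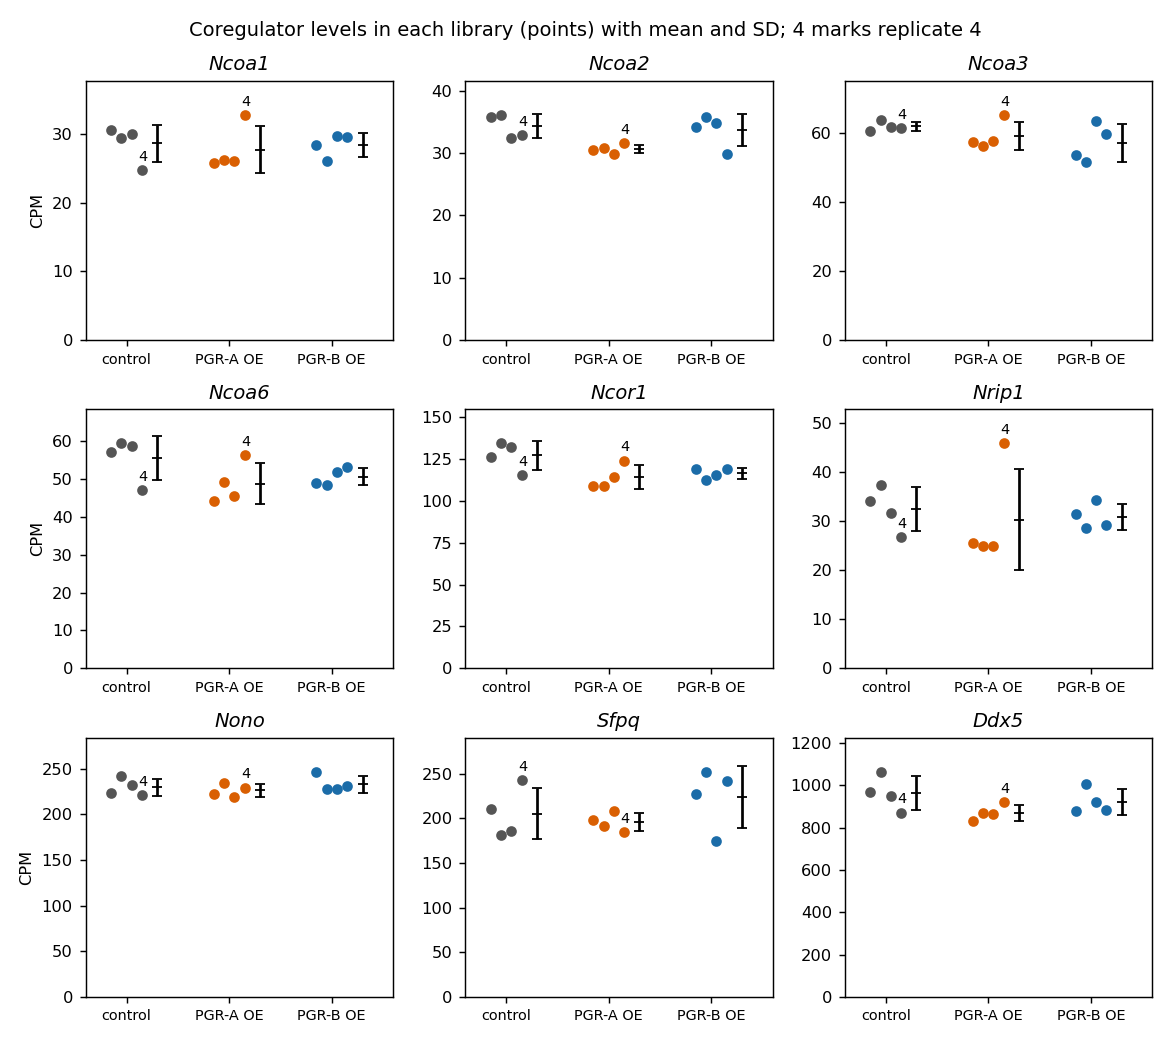
CPM of the 9 coregulator genes in each of 12 libraries by group (points, y axes from 0), with the mean and SD of each group of 4 and replicate 4 of the control and PGR-A OE groups marked. For Nrip1, PGR-A OE replicate 4 lies at 45.9 CPM and the other 3 libraries of that group at 24.9 to 25.5 CPM.

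Both libraries numbered 4 also stood at the extremes of the decidual and trophoblast markers, a list of 7 genes all in the table. The summed level of the list was 174 to 5070 CPM in the controls, 5.32 to 1280 CPM in PGR-A OE and 731 to 988 CPM in PGR-B OE. Control replicate 4 held the 5070 CPM, with 1 marker at 0 (Cts7), and PGR-A OE replicate 4 held the 5.32 CPM, with 4 at 0 (Prl3c1, Prl7d1, Prl3d1 and Cts7). Smooth muscle markers summed to 12220 to 16080 CPM in the controls and to 16450 to 22650 CPM in PGR-A OE, with the highest value in PGR-A OE replicate 4, and to 11860 to 15690 CPM in PGR-B OE, below all PGR-A OE libraries. Fibroblast markers, 6 of 6 in the table, summed to 23290 to 24430 CPM in the controls, 27640 to 34240 CPM in PGR-A OE and 27520 to 34230 CPM in PGR-B OE, with both groups above all controls. The part of these cell types in the coregulator levels was not tested.

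The calls depended on which libraries entered and how they were weighted. Of the fits that left out 1 library, those without the libraries numbered 4 gave more members lower, and the others gave 0 or 1. Without control replicate 4, 3 of 9 members were lower at an unadjusted p under 0.05 by edgeR. Of the 15561 genes tested in the fit of all 12 libraries, 1274 were lower at that p. The fit without control replicate 4 itself tested 15684 genes. Without PGR-A OE replicate 4, 4 of 9 members were lower at an unadjusted p under 0.05, beside 6.89% of all genes. With control replicate 4 left out as well, in a fit added after the data were seen, the number was 6 of 9, beside 8% of all genes. These libraries had already been seen on the side of the other group for several members. Leaving them out raises such a count, so it is no support for lower levels. By edgeR 0 passed after adjustment in either fit. A limma voom fit with a weight for each library, added after the data were seen, gave PGR-A OE replicate 4 the lowest weight, 0.353, and called 2 members lower: Ncor1 (-0.22, adjusted p = 0.0286) and Ncoa6 (-0.25, adjusted p = 0.0473). In that fit 6.72% of all genes were called, 3.73% as lower. Control replicate 4 had a weight of 0.562. PGR-A OE replicate 4 and control replicate 4 each had the lowest weight of their group. The 2 calls of members are thus likewise no support for lower levels.

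In PGR-B OE against control, 0 of 9 coregulators passed by edgeR, DESeq2 or limma voom, and 0 had an unadjusted p under 0.05 by edgeR, beside 0.308% of all genes called and 9.28% with an unadjusted p under 0.05. The estimates went both ways, with 2 members higher and 7 lower, and a median of -0.06. Of all genes tested, 48.8% had a difference above 0. This comparison shares its control libraries with the one before. For no member were the groups apart without overlap, where 5.67% of all genes were.

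Sfpq had the highest estimate, 0.13 (SE 0.12, interval -0.14 to 0.39, adjusted p = 0.820 by edgeR). Its PGR-B OE libraries held 228, 252, 174 and 242 CPM, beside 211, 182, 186 and 244 CPM in control. The groups overlapped throughout, and the lowest of all 12 was PGR-B OE replicate 3. Ncoa6 had the lowest estimate, -0.14 (SE 0.09, interval -0.34 to 0.06), with PGR-B OE libraries at 49.02, 48.4, 51.95 and 53.1 CPM.

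Ncor1 held 119, 112, 116 and 119 CPM in PGR-B OE, each below the 3 highest controls, with 1 of 4 below control replicate 4 as well (-0.13, SE 0.07, adjusted p = 0.597 by edgeR). Ncoa3 held 53.6, 51.6, 63.3 and 59.5 CPM, so that replicates 1, 2 and 4 lay below each control and replicate 3 lay within their range (-0.12, SE 0.07). Ncoa2, at 34.2, 35.8, 34.8 and 29.9 CPM, Ncoa1, at 28.4, 26.04, 29.7 and 29.6 CPM, and Nrip1, at 31.4, 28.7, 34.4 and 29.2 CPM, differed from control by -0.03, -0.01 and -0.07. Ddx5 (-0.06) and Nono (0.02) ran from 877 to 1007 and from 227 to 247 CPM, both overlapping the controls. The widest bound of any member was that of Nrip1, whose interval reached 0.720-fold of control.

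Between the isoforms, PGR-B OE against PGR-A OE, 0 of 9 members passed by edgeR, DESeq2 or limma voom, and 0 had an unadjusted p under 0.05 by edgeR, beside 0.116% of all genes called and 8.04% with an unadjusted p under 0.05. Estimates were higher in PGR-B OE for 8 of 9 members, with a median of 0.04, where 51.2% of all genes were higher. Sfpq again had the highest value, 0.20 (SE 0.12, interval -0.07 to 0.46), and Ncoa2 followed at 0.14 (SE 0.07, interval -0.02 to 0.29, adjusted p = 0.673 by edgeR). For Ncoa2, PGR-B OE replicate 4 matched the lowest PGR-A OE library, at 29.9 CPM, and the other 3 PGR-B OE libraries lay above all PGR-A OE libraries. For 0 of 9 members were the groups apart without overlap, where 3.85% of all genes were. Ncoa3 was the 1 member with a lower estimate (-0.05, SE 0.07). Nrip1 differed by 0.03, and by 0.30 without PGR-A OE replicate 4.

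**Figure D3:**
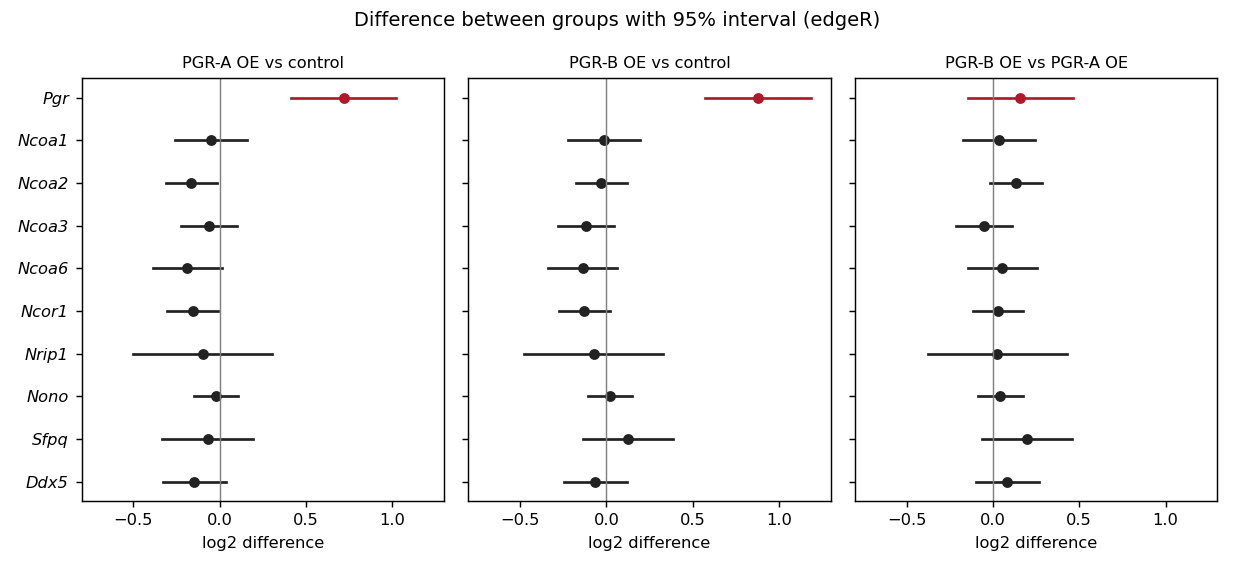
Log2 difference (point) and 95% interval (line) from edgeR for Pgr and the 9 coregulator genes in the 3 comparisons. The intervals of Pgr lie above 0 against control, and those of Ncoa2 and Ncor1 lie just below 0 in PGR-A OE without passing the adjusted threshold.

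Pgr itself rose in PGR-A OE (log2 difference 0.72, adjusted p = 0.0416 by edgeR) and in PGR-B OE (0.88, adjusted p = 0.0196 by edgeR), and the ratio of Pgr to each coregulator within a library was higher in both groups. In PGR-A OE the adjusted p was 0.0902 by edgeR in a fit of the 8 libraries compared, and 0.0906 without both control and PGR-A OE replicate 4. With 1 library left out the adjusted p ran from 0.0475 to 0.127 and from 0.0232 to 0.0784 by edgeR for PGR-A OE and PGR-B OE. Pgr did not pass in PGR-A OE when any 1 control or PGR-A OE replicate 2, 3 or 4 was left out, nor in PGR-B OE when control replicate 2, 3 or 4 or PGR-B OE replicate 1, 2 or 3 was left out. The ratios are of counts per kb and need no scaling between libraries. Because the groups were made to differ in the receptor, they are given without a test. Counts of Pgr from LSLPGRA or LSLPGRB were not told apart from those of the native gene. The same gene length was used for Pgr in all groups. Per Ncor1 transcript level, Pgr stood at 1.55 ± 0.199 in control, 2.82 ± 0.362 in PGR-A OE and 3.10 ± 0.380 in PGR-B OE (SD, n = 4). For Ncoa1 the ratio was 4.50 ± 0.433, 7.62 ± 0.601 and 8.37 ± 1.13, and for Sfpq it was 0.323 ± 0.0634, 0.552 ± 0.129 and 0.550 ± 0.141. Over the 9 members the mean ratio was 1.67-fold (Nono) to 1.86-fold (Ncoa6) that of control in PGR-A OE, and 1.71-fold (Sfpq) to 2.02-fold (Ncoa6) in PGR-B OE. All 9 ratios lay above those of all controls in either group, as did the ratio of Pgr to 63% of all genes tested in PGR-A OE and to 77.4% in PGR-B OE, so the count says nothing particular to the coregulators. The ratio of coactivator to corepressor was taken to Ncor1 only, not to Nrip1, and was not tested. It was mixed in direction, and for Ncoa2 and Ncoa6 it moved by less than the SD. The log2 ratio of Ncoa1 to Ncor1 per kb was -1.55 ± 0.0765 in control, -1.44 ± 0.0909 in PGR-A OE and -1.43 ± 0.0658 in PGR-B OE. That of Ncoa3 to Ncor1 was -0.47 ± 0.0871, -0.38 ± 0.0290 and -0.47 ± 0.128. The ratio of Ncoa2 to Ncor1 was -1.50 ± 0.103, -1.50 ± 0.0734 and -1.40 ± 0.148, and that of Ncoa6 to Ncor1 was -0.50 ± 0.0673, -0.53 ± 0.0976 and -0.50 ± 0.0567.

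Variation between libraries was small for most members. The SD of log2 CPM over the 12 libraries was 0.0521 for Nono, a value below which 0.276% of all genes tested lay. It was between 0.101 and 0.146 for Ncor1, Ncoa3, Ddx5, Ncoa2, Ncoa1 and Ncoa6, 0.184 for Sfpq and 0.265 for Nrip1, beside a median of 0.199 over all genes. In mean CPM the members stood above 58.7% (Ncoa1) to 99.4% (Ddx5) of all genes tested. Their SD was not compared with that of genes of like abundance. The highest library was 1.84-fold the lowest for Nrip1 and 1.13-fold for Nono. PGR-A OE replicate 4 held the highest value of 3 members (Ncoa1, Ncoa3 and Nrip1), and control replicate 2 that of 4 (Ncoa2, Ncoa6, Ncor1 and Ddx5).

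Of the 36 pairs of members, 27 were positively correlated over the 12 libraries, and 5 passed a two-sided permutation test of Pearson's r with Benjamini-Hochberg adjustment over the pairs. The 27 are 75% of the pairs, beside 50.5% of all pairs among 10075 genes with a mean of at least 10 CPM. The lowest r of the 5 that passed, 0.77, was reached by 1.17% of those pairs. As this cut was taken from the members, their own share (13.9%) was fixed by it, and the shares do not form a test. Ncoa6 and Ncor1 had r = 0.90 (permutation p = 8e-05, adjusted p = 0.00288) and Spearman's rho = 0.86 (permutation p = 0.00057, adjusted p = 0.0205). Without the 2 libraries farthest from the median of Ncoa6, r was 0.83, and with the group means removed it was 0.86. Ncoa1 and Nrip1 had r = 0.88 (permutation p = 0.00017, adjusted p = 0.00306) and rho = 0.78 (permutation p = 0.00419, adjusted p = 0.0339), with r = 0.84 without the 2 libraries farthest from the median of Ncoa1, 0.83 without PGR-A OE replicate 4 and 0.88 with group means removed. Ncoa1 and Ncoa6 had r = 0.84 (permutation p = 0.00115, adjusted p = 0.0138) and rho = 0.82 (permutation p = 0.00197, adjusted p = 0.0236), and r was 0.87 without the 2 farthest libraries. By Pearson's r over all 12 libraries, a coactivator and a corepressor thus stood in both of the closest pairs. This depended on the measure. By rho, Ncor1 with Nrip1, both corepressors, came next after Ncoa6 with Ncor1 (rho = 0.83). With group means removed, Ncoa1 with Ncoa6, both coactivators, had the highest r, 0.92.

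Ncoa6 and Nrip1 had r = 0.77 (permutation p = 0.00322, adjusted p = 0.0241) and rho = 0.76 (permutation p = 0.0055, adjusted p = 0.0339), with r = 0.80 without the 2 farthest libraries. The last pair that passed by r joined Ncoa2 with Ddx5, at r = 0.77 (permutation p = 0.00335, adjusted p = 0.0241). Its rho was 0.75 (permutation p = 0.0071, adjusted p = 0.0355), and r was 0.66 without the 2 farthest libraries. By the permutation test of rho, further pairs passed after adjustment. These were Ncoa1 with Ncor1, Ncoa6 with Ddx5, Ncor1 with Nrip1, Ncoa3 with Nrip1, and Nrip1 with Ddx5 (adjusted p from 0.0236 to 0.0355). With group means removed, r of Ncoa2 and Ddx5 was 0.65, beside 0.80 for Ncoa6 and Nrip1 and 0.92 for Ncoa1 and Ncoa6. Sfpq went the other way. Its r was below 0 with each of the other 8 members, from -0.61 with Ncoa3 (permutation p = 0.0378, adjusted p = 0.117) and rho = -0.66 (permutation p = 0.0226, adjusted p = 0.0626) to -0.0055 with Ncoa2 (permutation p = 0.986, adjusted p = 0.986), and none of these passed. Sfpq and its protein partner Nono had r = -0.16 (permutation p = 0.627, adjusted p = 0.705) and rho = -0.31 (permutation p = 0.322, adjusted p = 0.386). With group means removed, 26 of the 36 pairs had r above 0. The libraries share tissue and scaling, and their decidual and trophoblast markers differed as given above.

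**Figure D4:**
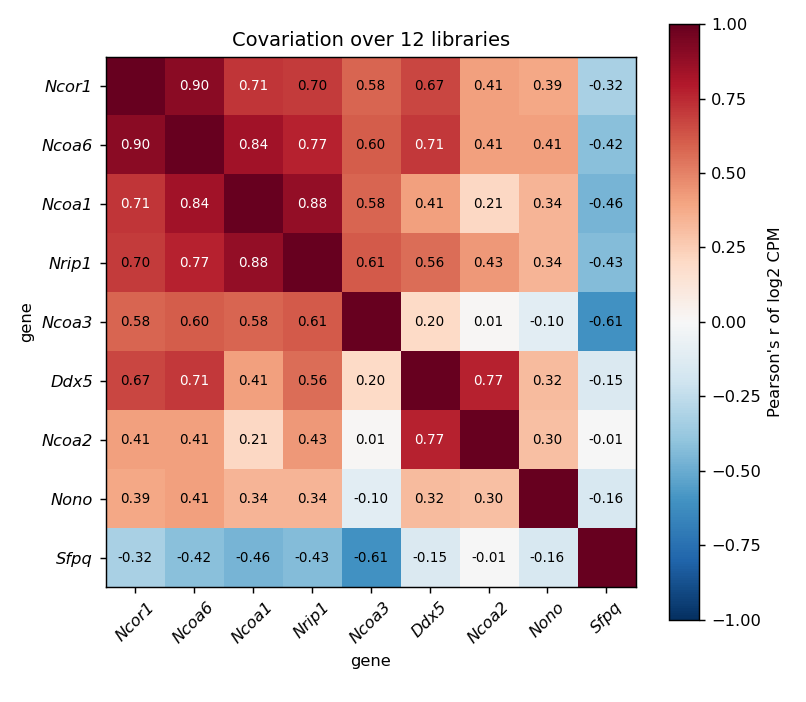
Pearson's r of log2 CPM over 12 libraries for each pair of the 9 coregulator genes (colour scale from -1 to 1). Ncor1, Ncoa6, Ncoa1 and Nrip1 form a block with r between 0.70 and 0.90, and the row of Sfpq is at or below 0.

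For each member the genes with the most similar pattern were sought among 9921 named genes with a mean of at least 10 CPM, by Pearson's r of log2 CPM over the 12 libraries. As the highest of 9921 values, these r are a description and carry no p. Ncor1 was closest to the RNA-binding protein gene Msi2 (r = 0.96, rho = 0.95), then to Kmt2e (r = 0.92). Ddx5 was closest to Pan3 (r = 0.96, rho = 0.97) and Zfp944 (r = 0.93). Sfpq was closest to Ddx18, a helicase of ribosome biogenesis (r = 0.95, rho = 0.96), and to Trmt6, a tRNA methyltransferase subunit (r = 0.95). Ncoa6 followed Ppp3ca, a calcineurin catalytic subunit (r = 0.95, rho = 0.92), and Phf3 (r = 0.94), while Ncoa2 followed Zkscan1 (r = 0.94, rho = 0.94) and Dgkh (r = 0.92). Nrip1 was nearest to Pnisr (r = 0.93, rho = 0.85), a value of 0.87 without PGR-A OE replicate 4, and to Fyco1 (r = 0.93). Ncoa1 was nearest to Mturn (r = 0.92, rho = 0.90) and Fmo5 (r = 0.92), Ncoa3 to Saa3 (r = 0.90, rho = 0.77) and Vsir (r = 0.88), and Nono to Ebf1 (r = 0.83, rho = 0.85) and Agtr1a (r = 0.80).

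A wider list of 68 other coregulators, all of them tested, gave the setting for the 9. It held other coactivators, histone-modifying enzymes, Mediator and SWI/SNF subunits, corepressor complexes, RNA-binding coregulators, SUMO and HMG partners and receptor chaperones. By edgeR 0 of 68 passed in each of the 3 comparisons, as by DESeq2 and limma voom. Unadjusted p under 0.05 was reached by 2 higher and 5 lower in PGR-A OE, 1 higher and 3 lower in PGR-B OE, and 1 higher and 0 lower between PGR-B OE and PGR-A OE. These are 10.3%, 5.88% and 1.47% of the list, beside 15.4%, 9.28% and 8.04% of all genes tested. Median differences were -0.01, 0.01 and 0.02.

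In PGR-A OE the lowest p belonged to Ube3a, a ubiquitin ligase that also coactivates steroid receptors, at 64.4 ± 3.75 CPM in the controls and 51.3 ± 3.56 CPM in PGR-A OE (log2 difference -0.33, adjusted p = 0.170 by edgeR). The Mediator kinase-module gene Med13 was at 51.9 ± 3.20 and 41.95 ± 5.21 CPM (-0.31). Kat2b, a histone acetyltransferase gene, was at 75.1 ± 6.48 and 63.5 ± 4.86 CPM (-0.24). Jdp2, which encodes a leucine-zipper partner of the receptor, was at 16.5 ± 1.72 and 20.7 ± 4.09 CPM (0.33), with the highest library, PGR-A OE replicate 4, at 26.4 CPM. None of these passed by edgeR, whereas the weighted limma voom fit called 2 lower, Med13 (adjusted p = 0.0134) and Ube3a (adjusted p = 0.0302).

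In PGR-B OE the lowest p belonged to Kat2b, at 63.6 ± 6.26 CPM (-0.24, adjusted p = 0.441 by edgeR), Med13 (-0.24), the acetyltransferase gene Ep300 (-0.19) and the SWI/SNF ATPase gene Smarca2 (0.28). Between the isoforms they were Med1, the Mediator subunit that contacts nuclear receptors, at 44.03 ± 1.18 CPM in PGR-B OE and 38.04 ± 2.44 CPM in PGR-A OE without overlap (0.21, adjusted p = 0.536 by edgeR), the chaperone gene Hspa4 (0.13), the deacetylase gene Hdac5 (-0.15) and the coactivator gene Ppargc1b (-0.31).

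**Figure D5:**
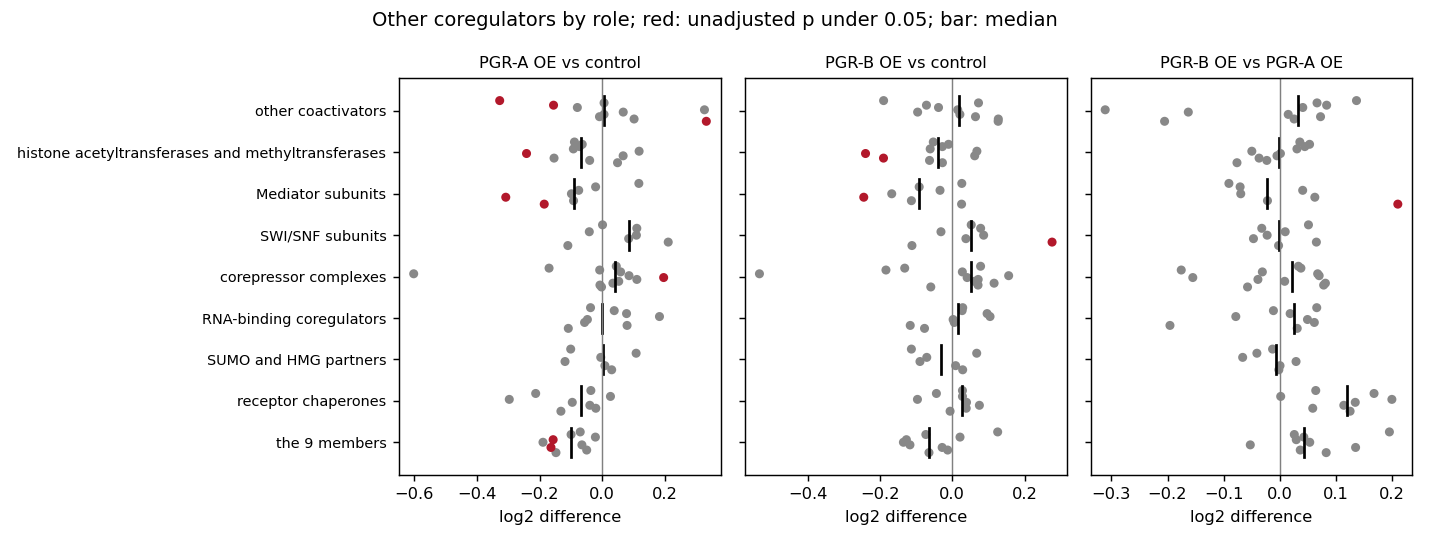
Log2 differences of 68 other coregulator genes by role and of the 9 members in the 3 comparisons (1 point per gene, red where the unadjusted p by edgeR is under 0.05, bar at the median). The 9 members all lie below 0 in PGR-A OE against control, and no gene shown passed after adjustment.

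Positions on GRCm38 are from GENCODE M21. Nrip1 (chromosome 16, 76287400 to 76373827), Ncoa2 (chromosome 1, 13139105 to 13374083), Ncoa6 (chromosome 2, 155390656 to 155473894) and Nono (chromosome X, 101429318 to 101448591) share no exon bases with another gene model. Ncoa3 (chromosome 2, 165992636 to 166073242) shares 154 exon bases with Sulf2 on the opposite strand, and Ncor1 (chromosome 11, 62316426 to 62458541) shares 82 with Pigl and 1 with Ttc19. Ncoa1 (chromosome 12, 4247362 to 4477182) shares 68 exon bases with an antisense model, Sfpq (chromosome 4, 127021324 to 127037013) 216 with a processed transcript, and Ddx5 (chromosome 11, 106780355 to 106789185) 67 with Mir3064 and 101 with another microRNA model. The use of strand in counting is not given in the sources used here, so counts in those stretches are uncertain.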

How the data were processed

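Uterine RNA of 12 libraries was sequenced as paired-end reads of 75 bases, per the labels' protocols. The authors deposited whole-number counts per gene, not normalized, with a gene length for each gene. The submitters' processing notes name STAR 2.7.0f, Bowtie2 2.2.5, Subread 1.6.4 with featureCounts, and DESeq2, beside builds GRCm38 and mm10. How annotation, strand and multi-mapped reads were handled was not given in the sources used here.

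Tests were run in R 4.3.3 with edgeR 4.0.16 (filterByExpr, TMM, robust quasi-likelihood, 1 fit of 12 libraries), adjusted by Benjamini and Hochberg over 15561 genes at 0.05. The scripts were tested on simulated data. DESeq2 1.42.0, limma 3.58.1 voom, other scalings, no filter, a replicate block and left-out libraries were alternatives. Log2 CPM used a prior count of 2. Correlations used 100000 permutations of all 12 libraries without regard to group. Intervals are at 95%.

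The members and lists were chosen with earlier results of these data known. The genes named are the 9 members, Pgr, the 4 other coregulators with the lowest p in each comparison, and the 2 genes most correlated with each member. A gene of the list of other coregulators is not reported here and enters none of its counts. No library pair of a group had the same counts within sampling noise.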

Additional observations from a re-analysis of the deposited data

Results flagged for a closer look

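In the PGR-A OE group, 1 library lay far from the other 3 for 3 of the 9 coregulators, by Dixon's test at its 95% critical value for 4 libraries. In each case it was the highest library, PGR-A OE replicate 4. For Nrip1 it held 45.9 CPM, and the nearest other library held 25.5 CPM, a gap of 0.969 of the range. For Ncoa1 it held 32.8 CPM, beside 26.2 CPM in the nearest, a gap of 0.938. For Ncoa3 it held 65.2 CPM, beside 57.6 CPM, a gap of 0.849. Chance flags about 1 in 20 groups, and 27 groups were examined here. The same library held the lowest sum of decidual and trophoblast markers, 5.32 CPM, and the highest sum of smooth muscle markers, 22650 CPM. Their part in the 3 values was not tested.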

How the results depend on the processing

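No member passed the threshold in any of the 3 comparisons by edgeR under TMM, RLE or upper-quartile scaling, without the low-count filter, in fits of the 8 libraries compared, or when any 1 library was left out (range 0 to 0 for members and for the 68 other coregulators), nor by DESeq2 or unweighted limma voom. At an unadjusted p under 0.05, members numbered 0 to 4, 0 to 2 and 0 to 1 with 1 library left out. Limma voom with library weights called 2 members and 2 other coregulators in PGR-A OE against control. Counts of all genes called moved more: 575, 216 and 125 by DESeq2 in place of 102, 48 and 18, 1045, 156 and 81 by weighted voom, 63 (PGR-A OE against control) and 10 (between isoforms) in fits of 8 libraries, 96, 91 and 38 with both libraries numbered 4 of the control and PGR-A OE groups left out, and 32 to 99, 22 to 48 and 11 to 31 when 1 library was left out. In PGR-A OE the count was 32, 43, 44 and 56 without control replicate 1, control replicate 2, PGR-A OE replicate 1 and PGR-A OE replicate 2. For PGR-B OE against control the counts were 24, 22 and 28 when the library left out was control replicate 1, control replicate 2 or PGR-B OE replicate 4, respectively. Between isoforms it was 11 without PGR-A OE replicate 1, PGR-A OE replicate 2 or PGR-B OE replicate 1. It was 31 once PGR-A OE replicate 4 was removed. Same-numbered libraries did not vary together (r from -0.26 to 0.19, with 1 of 12 pairs over 0.1, and 2 of 12 libraries closest to their own number). With the replicate block, 0 members and 0 other coregulators passed, and 69, 32 and 11 of all genes, and Pgr had adjusted p of 0.122 and 0.0976 by edgeR in PGR-A OE and PGR-B OE. Signs of small log2 differences changed with the setting, and the cause was not tested. With upper-quartile scaling they were 0.011 for Nono in PGR-A OE, 0.013 for Ncoa1 in PGR-B OE and -0.00468 for Kat2b between isoforms. Between isoforms, Kat2b was at -0.000770 by limma voom and -0.039 by weighted voom, and Ncoa3 at 0.018 by weighted voom. With control replicate 4 and PGR-A OE replicate 4 both left out, values were 0.046 for Sfpq in PGR-A OE and, between isoforms, 0.00284 for Ncoa3, -0.045 for Kat2b and 0.024 for Ep300. With 1 library left out, values in PGR-A OE ran from -0.0395 to 0.00492 for Nono and from -0.12 to 0.021 for Sfpq. In PGR-B OE they ran from -0.078 to 0.032 for Ncoa1, -0.055 to 0.029 for Ncoa2, -0.16 to 0.00489 for Nrip1, -0.0065 to 0.049 for Nono, -0.037 to 0.071 for Med1, -0.0033 to 0.077 for Hspa4, -0.018 to 0.088 for Hdac5 and -0.10 to 0.089 for Ppargc1b. Between isoforms they ran from -0.055 to 0.30 for Nrip1, -0.0040 to 0.15 for Med13, -0.050 to 0.066 for Kat2b, -0.067 to 0.020 for Ep300 and -0.043 to 0.20 for Smarca2. The length of the longest annotated transcript, in place of the deposited length, kept the order of the 6 most abundant members. Each member had at least 780 counts in each library.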
